A study of Mus musculus with 9 samples.

Results

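The angiopoietins Angpt1, Angpt2 and Angpt4 and the angiopoietin-like genes Angptl1, Angptl2, Angptl4, Angptl6 and Angptl7 were followed in cultured mouse synovial fibroblasts (SFs). These 8 genes, of 49548 in the deposited tables, were taken by gene name. The family was selected on its normalized counts in these same 9 libraries, so the levels and differences of its members are a description with no test. Mice of the CBA C57BL/6J background gave the SFs from their ankle joints at 8 weeks of age. They were either wild type (WT) or hTNFtg, a line that carries a human TNF transgene and develops polyarthritis. Each genotype gave 3 libraries without infliximab, and 3 more came from hTNFtg SFs that had received 1 µg/mL of this antibody against human TNF for 48 hours. By the labels the SFs without infliximab were not treated, and by the methods they received vehicle. CD45+ cells had been depleted from all cultures at passage 1, and how many mice or cultures stand behind a library is not given beyond the term biological replicate. The human TNF transgene itself was not analysed here.

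Angiopoietins are secreted glycoproteins that act on blood vessels through the receptor tyrosine kinase TEK, also called TIE2, on endothelial cells. Angpt1 activates the receptor and stabilises vessels, Angpt2 can oppose it and is made mainly by endothelial cells, and Angpt4 is a further ligand of the same receptor. The angiopoietin-like proteins share the coiled-coil and, with the exception of Angptl8, the fibrinogen-like region, but do not bind TEK. Angptl4 inhibits lipoprotein lipase, Angptl2 is a secreted mediator of chronic inflammation that binds integrins and the leukocyte receptor family of Pirb, Angptl6 is linked to energy metabolism, and Angptl7 is known from the cornea and the trabecular meshwork of the eye.

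Counts are given as normalized counts, which the authors scaled per library and deposited as whole numbers. Since 3′ mRNA sequencing places its reads at the end of a transcript, a longer transcript does not gather more of them, and levels of different genes were compared without dividing by length. The libraries held approximately 3829156 to 9014697 reads on genes, except for hTNFtg replicate 1 with 613343. In that library 1 read was worth 6.23 normalized counts, against 0.534 to 1.10 in the other 8. A level of 3 reads, taken as the floor of detection, was therefore 18.7 normalized counts in hTNFtg replicate 1 and 1.60 to 3.31 elsewhere. Markers of SFs (Col1a1, Col1a2, Pdpn, Thy1, Pdgfra and 5 others) summed to 32448 to 49660 in every library. Most of this sum was Col1a1 and Col1a2. Pdpn was at 852 to 982 in WT, 1987 to 5582 in hTNFtg and 2460 to 2862 with infliximab. The summed markers of macrophages were at 165 to 518 in WT, 2641 to 5871 in hTNFtg and 1648 to 3157 with infliximab, although Ptprc, which encodes CD45, reached at most 31. The 12 hepatocyte markers summed to 1311 in infliximab replicate 3 and to 20 to 79 in the other 8 libraries. Chondrocyte and tendon markers summed to 8812 to 11606 in WT, 1568 to 3064 in hTNFtg and 2111 to 4087 with infliximab. These sums were mostly Comp, Sox9 and Thbs4. By the study's rule given below, 6 of the 11 markers were lowered and 1 was raised in hTNFtg versus WT SFs. The raised gene was the tendon marker Scx, at 32 to 51 in WT, 98 to 112 in hTNFtg and 83 to 102 with infliximab. Tnmd and Col2a1 overlapped between the groups. Skeletal muscle markers summed to at most 80 in any library. The part of these cell types in the results below was not tested, and a change in the number of cells of a type cannot be told apart from a change in RNA per cell.

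The promoters of 3 genes are shown because, of the members detected in all groups, these differed most in log2 level between hTNFtg and WT SFs, with Angptl7 and Angptl2 higher and Angpt4 lower. Each runs from 250 bases before to 50 bases after the start site that RefSeq gives in GRCm38.p6, the build of mm10, and is written 5′ to 3′ on the strand of the gene. Capitals mark matches, on either strand, to one of 6 motifs. The Angptl7 window is at chr4:148500413-148500712 on the minus strand, the Angptl2 window at chr2:33215711-33216010 on the plus strand and the Angpt4 window at chr2:151910957-151911256 on the plus strand.
Angptl7: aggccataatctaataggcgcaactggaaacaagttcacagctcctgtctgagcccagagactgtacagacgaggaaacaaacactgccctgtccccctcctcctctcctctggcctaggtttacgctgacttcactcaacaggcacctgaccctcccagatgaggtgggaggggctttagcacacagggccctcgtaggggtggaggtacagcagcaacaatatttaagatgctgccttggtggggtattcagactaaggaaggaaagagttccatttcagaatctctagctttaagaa
Angptl2: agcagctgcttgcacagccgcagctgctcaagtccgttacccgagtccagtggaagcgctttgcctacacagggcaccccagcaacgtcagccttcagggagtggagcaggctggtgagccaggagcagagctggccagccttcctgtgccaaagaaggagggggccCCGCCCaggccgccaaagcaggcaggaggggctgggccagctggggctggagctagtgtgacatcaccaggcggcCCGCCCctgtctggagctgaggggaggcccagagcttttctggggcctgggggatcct
Angpt4: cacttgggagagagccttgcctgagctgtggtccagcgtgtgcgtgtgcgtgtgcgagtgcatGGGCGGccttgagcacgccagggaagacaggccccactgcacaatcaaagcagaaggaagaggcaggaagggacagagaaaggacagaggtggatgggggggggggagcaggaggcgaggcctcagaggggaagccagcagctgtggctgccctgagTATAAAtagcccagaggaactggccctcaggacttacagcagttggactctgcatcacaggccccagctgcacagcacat
The motifs searched were GGGANTTTC, an NF-kB consensus without its last base (in 1.11% of the 32851 promoters of the RefSeq table), TGANTCA of AP-1 (7.81%), the TATA box TATAAA (13.6%), the GC box GGGCGG (35.7%), the core ACGTG of hypoxia elements (19.6%) and AGGTCA, the half-site of nuclear receptors such as the PPARs (16.3%). No matches overlapped one another in the windows shown. The Angpt4 promoter held a TATA box that begins 30 bases before the start site and a GC box that begins 187 bases before it. The Angptl2 promoter, with 66.7% G and C, held GC boxes that begin 83 and 8 bases before the start site and no TATAAA. In the Angptl7 promoter, with 51.3% G and C, none of the 6 letter patterns was found. A match or its absence describes letters in these windows only. By symbol, 5 of the 8 members matched the table, and the promoters of Angptl1 and Angptl6 held no match.

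In WT SFs the most abundant members were Angptl2, at 385 ± 102 normalized counts (SD, n = 3), and Angptl4 at 309 ± 164. Their libraries overlapped, so the order of these neighbours was not resolved. Angpt1 followed at 106 ± 32.9 and Angpt4 at 94.7 ± 24.8, again with overlapping libraries. Angptl6 stood at 67.7 ± 8.50 and Angptl7 at 27.3 ± 12.7, and the highest Angptl7 library lay below the lowest Angptl6 library. Angpt2 was at 4.33 ± 4.04, and Angptl1 was under the floor, with a single read in WT replicate 2. In hTNFtg SFs the order was Angptl2, Angptl4, Angptl7, Angpt1, Angpt4 and Angptl6, with Angptl7 now at the level of Angptl4 (188 ± 44.2 against 237 ± 45.0, libraries overlapping). The libraries of Angpt1 and Angpt4 overlapped as well, as did those of Angpt4 and Angptl6, so the order of these neighbours was not resolved. With infliximab, Angptl2 was at 754 ± 18.2, Angptl4 at 240 ± 68.3 and Angptl7 at 131 ± 51.3, and Angpt1 followed at 86.3 ± 18.9, with libraries that overlapped those of Angptl7.

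**Figure D1:**
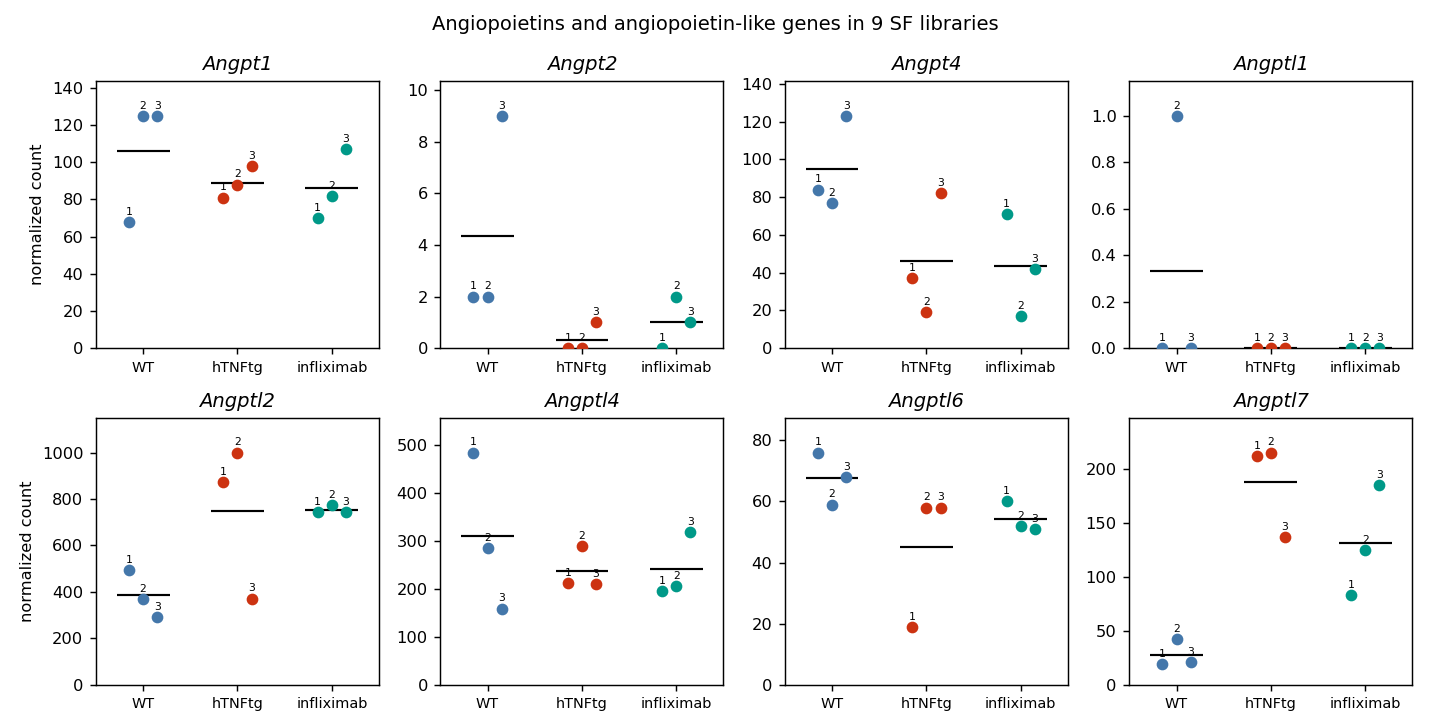
Normalized counts (y axis, own scale from 0 in each panel) of the 8 genes in the WT, hTNFtg and infliximab-treated hTNFtg libraries. Each point is 1 library with its replicate number and the line is the mean of 3 libraries. All Angptl7 libraries of hTNFtg SFs, treated or not, lie above the WT libraries, whereas Angpt1 and Angptl4 overlap between the groups.

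Members were counted by the study's rule, which asks for P below 0.05 without adjustment and for a 2-fold change or more (1 on the log2 scale), with P from limma on log2(normalized count + 1). In hTNFtg versus WT SFs, 3 of 8 members were past the rule (Angptl7 higher, Angpt4 and Angpt2 lower), beside 6.39% of the 28522 genes tested. In infliximab-treated versus untreated hTNFtg SFs, 0 of the 7 members tested were past it, beside 2.43% of 28540 genes, and edgeR also counted 0 members. In infliximab-treated hTNFtg versus WT SFs, 2 of 8 were past it (Angptl7 higher, Angpt4 lower), beside 6.81% of 28243 genes. Because the same values chose the members, nothing is read from these counts. The first count was 1 (Angptl7 alone) without the shallow hTNFtg replicate 1, and also without hTNFtg replicate 2 or WT replicate 3. The last count was 1 (Angptl7) without WT replicate 2, WT replicate 3 or infliximab replicate 2, 2 (Angptl7 and Angptl2) without WT replicate 1 or infliximab replicate 3, and 3 (Angptl7, Angpt4 and Angptl2) without infliximab replicate 1. The libraries of the groups compared did not overlap for 3 of 8, 0 of 7 and 3 of 8 members in the 3 comparisons. Over all genes tested, 11.4%, 7.44% and 14.2% did not overlap, so such separation is common with 3 libraries per group. Nothing is read from the members' share. The median log2 fold change of the members was -0.30, 0.00 and -0.29 in the 3 comparisons, and that of all genes tested was 0.00 in each. The 3 comparisons share their groups of libraries, so their fold changes stand side by side and are not independent.

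Among the members detected in both groups, Angptl7 differed most between hTNFtg and WT SFs on the log2(normalized count + 1) scale. The gene (ENSMUSG00000028989) lies at chr4:148495183-148500460 on the minus strand of mm10. It was at 19, 42 and 21 normalized counts in WT replicates 1, 2 and 3, at 212, 215 and 137 in hTNFtg, and at 83, 125 and 185 with infliximab. Every hTNFtg library, with or without infliximab, was higher than every WT library, and treated and untreated hTNFtg libraries overlapped. The mean was 6.88-fold higher in hTNFtg than in WT SFs, and the log2 fold change was 2.80 ± 0.40 (SE). In infliximab-treated hTNFtg versus WT SFs it was 2.23 ± 0.38, and in treated versus untreated hTNFtg SFs it was -0.56 ± 0.35. In the shallow hTNFtg replicate 1 the level rested on 34 reads, which allow 147 to 296 normalized counts (exact Poisson 95% interval, counting error only). The lower end of that interval was still above all WT libraries. Leaving out each library in turn gave 2.59 to 3.14 in hTNFtg versus WT and 1.95 to 2.58 in infliximab-treated hTNFtg versus WT SFs. Between treated and untreated hTNFtg SFs it gave -0.85 (without infliximab replicate 3) to -0.27 (without infliximab replicate 1).

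Angptl2 (ENSMUSG00000004105, chr2:33216069-33247717, plus strand) was the most abundant member by mean in all 3 groups. It was at 495, 369 and 292 normalized counts in WT replicates 1, 2 and 3, at 872, 1000 and 371 in hTNFtg, and at 743, 775 and 744 with infliximab. The hTNFtg libraries were uneven, since replicate 3, the deepest of the 9 libraries, lay within the WT range, while the infliximab-treated libraries were close to one another and all above WT. The log2 fold change was 0.87 ± 0.40 in hTNFtg versus WT SFs. It was past the rule there without hTNFtg replicate 3 (1.31) and with array quality weights (1.26). It was 1.00 ± 0.21 in infliximab-treated hTNFtg versus WT SFs, which is just under the threshold before rounding. Angptl2 was past the rule in this comparison with a pseudocount of 0.5, with quantile or median ratio scaling, with array quality weights, and without WT replicate 1, infliximab replicate 1 or infliximab replicate 3. In treated versus untreated hTNFtg SFs it was 0.13 ± 0.36, and -0.31 without hTNFtg replicate 3. The mean was 1.94-fold higher in untreated and 1.96-fold higher in treated hTNFtg SFs than in WT.

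Angpt4 (ENSMUSG00000027460, chr2:151911210-151945337, plus strand) had lower levels in most hTNFtg libraries than in WT. It was at 84, 77 and 123 normalized counts in WT replicates 1, 2 and 3, at 37, 19 and 82 in hTNFtg, and at 71, 17 and 42 with infliximab. hTNFtg replicate 3 overlapped the WT range, while all infliximab-treated libraries were below WT. The log2 fold change was -1.23 ± 0.50 in hTNFtg versus WT SFs, -1.29 ± 0.45 in infliximab-treated hTNFtg versus WT SFs and -0.06 ± 0.60 between treated and untreated hTNFtg SFs, the last being between -0.56 and 0.48 with a library left out. The first value moved between -1.76 and -0.74 when libraries were left out, and it stayed past the rule only without hTNFtg replicate 3. The second moved between -1.75 and -0.75 and stayed past the rule only without infliximab replicate 1. In the shallow library, 37 normalized counts of Angpt4 were 6 reads, with an exact Poisson 95% interval of 13.7 to 81.4.

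Angpt1 (ENSMUSG00000022309, chr15:42424727-42676977, minus strand), the activating ligand of TEK, overlapped between all groups. It was at 68, 125 and 125 normalized counts in WT replicates 1, 2 and 3, at 81, 88 and 98 in hTNFtg, and at 70, 82 and 107 with infliximab. The log2 fold changes were -0.20 ± 0.35, -0.06 ± 0.32 and -0.26 ± 0.29 in hTNFtg versus WT SFs, with versus without infliximab, and in treated hTNFtg versus WT SFs. The 8 markers of mural cells, which make Angpt1 around vessels, summed to 1043 to 1593 in WT, 730 to 1052 in hTNFtg and 1207 to 1375 with infliximab. Most of this sum was Pdgfrb, which fibroblasts also express, at 787 to 1172 in WT, 462 to 591 in hTNFtg and 646 to 829 with infliximab. The pericyte marker Rgs5 was at 26, 31 and 25 in WT, 0, 3 and 4 in hTNFtg, and 13, 21 and 9 with infliximab, and Kcnj8 was at 0 to 1 in all libraries. Rgs5 had a log2 fold change of -3.38 ± 0.83 in hTNFtg versus WT SFs (limma adjusted p = 0.139) and 2.42 ± 0.93 in treated versus untreated hTNFtg SFs (limma adjusted p = 0.803), both past the rule, although in hTNFtg replicate 1 the floor of 18.7 lay close to the WT values. Of the other markers, Notch3 was past the rule in treated versus untreated hTNFtg SFs and Cspg4 in treated hTNFtg versus WT SFs. Notch3 was at 25, 36 and 32 in untreated and 44, 44 and 161 in treated hTNFtg SFs (limma adjusted p = 0.803). The 161 was in infliximab replicate 3, the library with the hepatocyte markers. For Angpt1, differences of the size of its standard errors, 0.29 to 0.35, were not detectable with 3 libraries per group.

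Angpt2 (ENSMUSG00000031465, chr8:18690263-18741562, minus strand), the ligand that can oppose Angpt1, was close to the floor. It was at 2, 2 and 9 normalized counts in WT replicates 1, 2 and 3, at 0, 0 and 1 in hTNFtg, and at 0, 2 and 1 with infliximab. Only WT replicate 3 exceeded 3 reads, and in hTNFtg replicate 1 the floor of 18.7 normalized counts was above all WT values. No fold change is therefore stated, and the call by the rule was lost without WT replicate 3, without hTNFtg replicate 1, without hTNFtg replicate 2, with a pseudocount of 5 and with edgeR. Angpt2 summed to about 22 reads over the 9 libraries, against 997 for Angpt1 and 680 for Angpt4. The defining markers of endothelial cells were also near 0, with Pecam1 at 0 to 2, Cdh5 at 0 to 3, Kdr at 0 to 3 and Tie1 at 0 in every library, and 9 of the 11 endothelial markers did not exceed 6. The others were Erg at 1 to 25 and Egfl7 at 106 to 295, which is also the marker that makes up most of the summed endothelial level of 118 to 327.

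Angptl4 (ENSMUSG00000002289, chr17:33773750-33781575, minus strand), an inhibitor of lipoprotein lipase, varied as much within WT SFs as between the groups. It was at 484, 285 and 159 normalized counts in WT replicates 1, 2 and 3, at 212, 289 and 210 in hTNFtg, and at 196, 206 and 319 with infliximab. The log2 fold change was -0.26 ± 0.39 in hTNFtg versus WT SFs, 0.00 ± 0.30 with versus without infliximab, and -0.26 ± 0.37 in treated hTNFtg versus WT SFs. Without WT replicate 1 the first and the last of these became positive, at 0.14 each. The highest infliximab value was in replicate 3, the library with the hepatocyte markers, as it was for Angptl7 (185) and Angpt1 (107). The other detected members did not peak there. Angptl6 had its lowest infliximab value in that library (51), and Angptl2 (744) and Angpt4 (42) had their middle value. The part of hepatocyte RNA in these levels was not tested.

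Angptl6 (ENSMUSG00000038742, chr9:20873808-20879727, minus strand) was at 76, 59 and 68 normalized counts in WT replicates 1, 2 and 3, at 19, 58 and 58 in hTNFtg, and at 60, 52 and 51 with infliximab. All hTNFtg libraries were below all WT libraries, but 2 of them by 1 normalized count only. The log2 fold change in hTNFtg versus WT SFs was -0.73 ± 0.47, and it moved to -0.21 without hTNFtg replicate 1, where 19 normalized counts were 3 reads. It was 0.42 ± 0.46 with versus without infliximab, which turned to -0.10 without hTNFtg replicate 1, and -0.31 ± 0.23 in treated hTNFtg versus WT SFs.

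Angptl1 (ENSMUSG00000033544, chr1:156838562-156861078, plus strand) was at 1 normalized count in WT replicate 2 and at 0 in the other 8 libraries, so it was not detectable at this depth. Angptl8 (ENSMUSG00000047822), a family gene outside the members that takes part in the control of lipoprotein lipase, was at 2 in infliximab replicate 2 and at 0 elsewhere. Infliximab replicate 3 held hepatocyte markers such as Alb at 265, and in it Angptl8 was at 0.

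**Figure D2:**
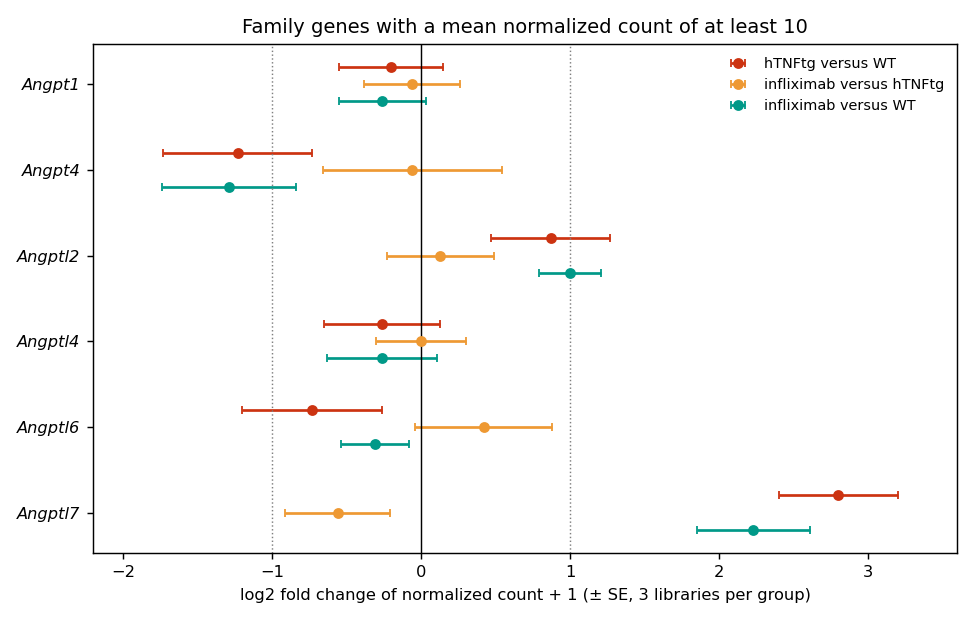
Log2 fold change (x axis, of normalized count + 1) of the 6 genes with a mean of at least 10 normalized counts in the 3 comparisons. Points are limma estimates, bars are ± 1 SE with 3 libraries per group, and dotted lines mark the rule's threshold of 1. Angptl7 stands at 2.80 and 2.23 against WT and at -0.56 between treated and untreated hTNFtg SFs.

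The summed level of the 8 genes was 797 to 1228 normalized counts in WT, 957 to 1669 in hTNFtg and 1223 to 1449 with infliximab. These sums overlapped between WT and untreated hTNFtg SFs, while the composition differed. Angptl7 made up 1.55% to 4.38% of the sum in WT, 12.9% to 14.8% in hTNFtg and 6.79% to 12.8% with infliximab. Angptl2 made up 36.6% to 40.3% in WT and 51.3% to 61.6% with infliximab, and in hTNFtg it was at 60.9%, 59.9% and 38.8% in replicates 1, 2 and 3. Angptl4 made up 19.9% to 39.4% in WT and 14.8% to 22% in the 6 hTNFtg libraries. A share of a sum depends on all genes in it, so a higher share of one gene lowers those of the others.

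**Figure D3:**
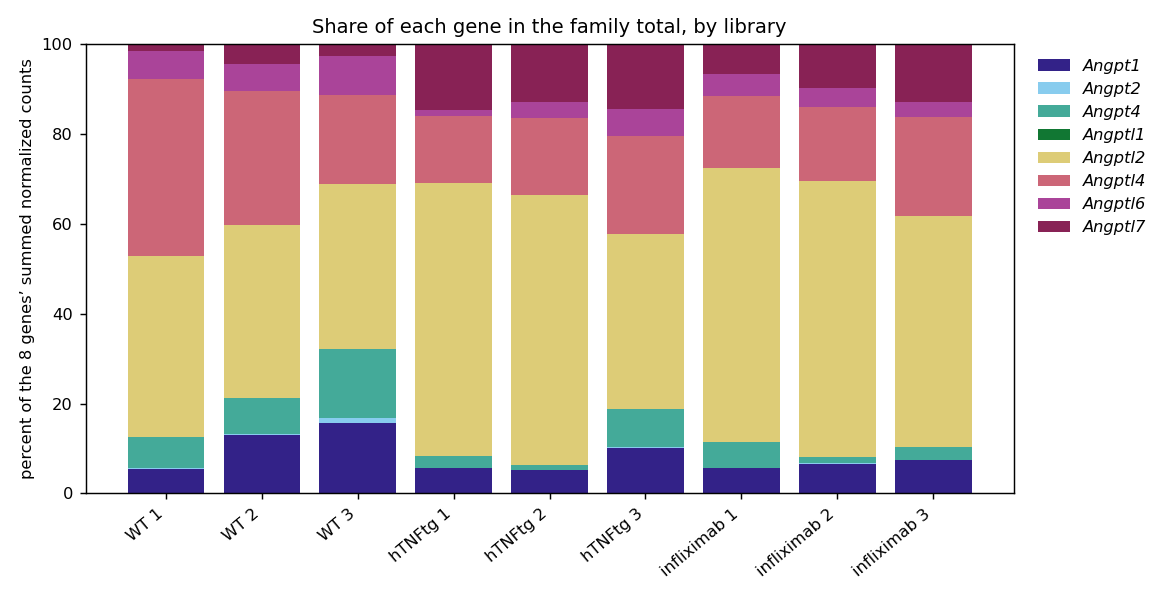
Share of each gene (y axis, percent of the summed normalized counts of the 8 genes) in each of the 9 libraries. Angptl7 takes 1.55% to 4.38% in WT and 12.9% to 14.8% in hTNFtg libraries, and Angpt2 and Angptl1 are barely visible.

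Position in the genome was not used to choose the members. By the coordinates of the tables, 4 of the 8 (Angpt2, Angptl1, Angptl2 and Angptl7) lie wholly inside another protein-coding gene, compared with 4.02% of the 21960 protein-coding genes. Angptl7 lies inside Mtor, the gene of the growth regulator kinase mTOR, Angptl2 inside Ralgps1 and Angptl1 inside Ralgps2, which encode exchange factors for Ral GTPases, and Angpt2 inside Mcph1, the microcephalin gene. Angptl8 lies inside Dock6 in the same way. In each of these pairs the genes are on opposite strands, and in the GENCODE M21 annotation they share no exon base. Whether reads were counted by strand is not given in the sources used here, so reads from an intron of the host could count for the member. Mtor was at 34, 38 and 55 normalized counts in WT, 19, 68 and 35 in hTNFtg, and 45, 65 and 48 with infliximab. Its log2 fold change in hTNFtg versus WT SFs was -0.21 ± 0.51 (limma adjusted p = 0.900), and its groups overlapped. Ralgps1 stayed between 0 and 9 normalized counts in all libraries, far below Angptl2. Mcph1, at 21 to 93, and Ralgps2, at 0 to 19, were at or above Angpt2 and Angptl1 in every library.

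Among the detected members, Angptl6 and Angpt1 share exon bases with a gene on the opposite strand. The exons of Angptl6 share 265 bases with those of A230050P20Rik. A230050P20Rik was at 136, 92 and 95 normalized counts in WT, at 31, 86 and 96 in hTNFtg, and at 106, 84 and 87 with infliximab. Its log2 fold change in hTNFtg versus WT SFs was -0.73 ± 0.44 (limma adjusted p = 0.726), with the lowest value in hTNFtg replicate 1 as for Angptl6. Unless reads were counted by strand, those of the 2 genes could not be separated where they overlap, so the Angptl6 values are uncertain. Angpt1 shares 737 exon bases with the noncoding gene Gm17473, which was at 0 in all libraries.

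**Figure D4:**
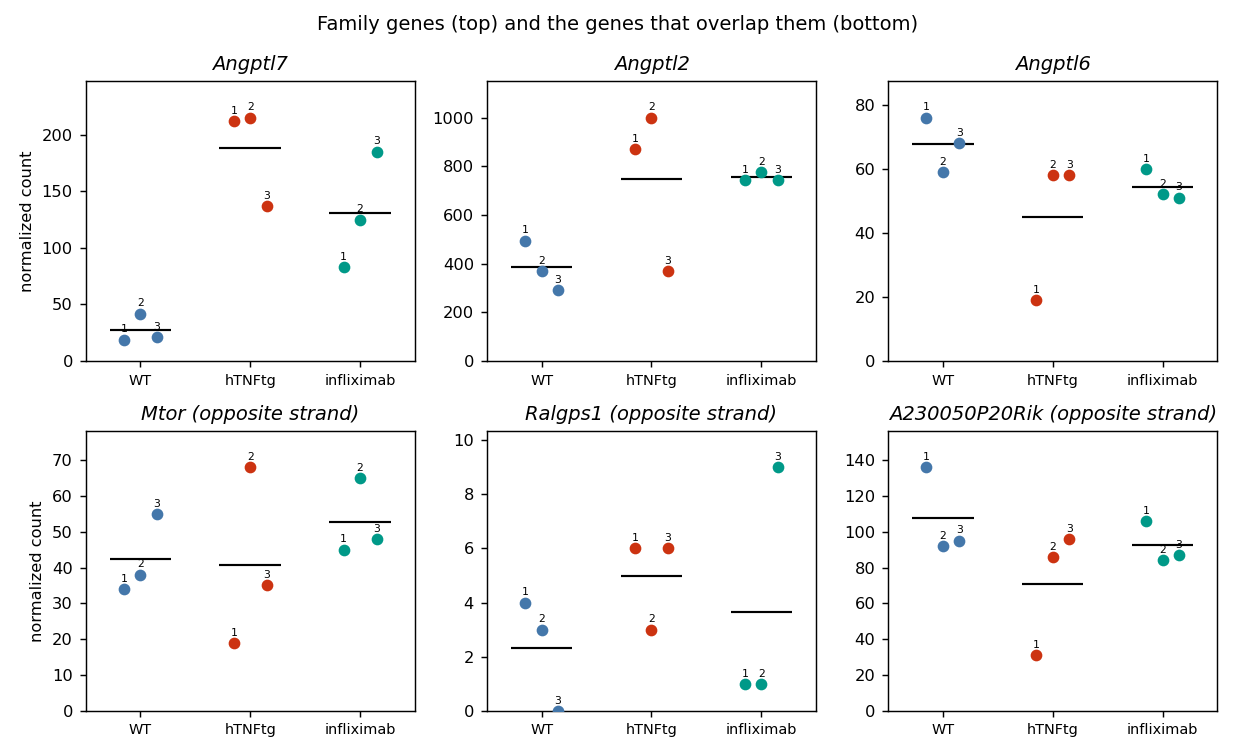
Normalized counts (y axis, from 0) of Angptl7, Angptl2 and Angptl6 above those of the genes that overlap them on the opposite strand, in 9 libraries. Points are libraries with their replicate number and lines are means of 3 libraries. Mtor and Ralgps1 overlap between the groups, and A230050P20Rik has its lowest value in the same library as Angptl6.

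The genes most like each detected member over the 9 libraries were named by the Pearson correlation of log2(normalized count + 1) among 13600 genes with a mean of at least 10. These correlations are descriptions, since all points share depth and group. For Angptl7 they were Sdk1, an adhesion protein of the immunoglobulin family, Slc29a1, a nucleoside transporter, and Kcnn4, a calcium-activated potassium channel, each with r = 0.97. Kcnn4 was at 9, 20 and 10 normalized counts in WT, 187, 135 and 166 in hTNFtg, and 78, 64 and 103 with infliximab. For Angptl2 they were Inf2, a formin (r = 0.98), Anxa8, an annexin, and Exosc6, a subunit of the RNA exosome (both r = 0.97), and Anxa8 was likewise low in hTNFtg replicate 3, at 217 against 405 and 497. For Angpt4 they were Tnik, a kinase (r = 0.95), Tsc22d3, a glucocorticoid-induced gene, and Abat, which breaks down GABA (both r = 0.93). The genes nearest to Angptl4 were Zfp334 (r = 0.91), Plod3, a collagen lysyl hydroxylase (r = 0.90), and Fbxl2 (r = 0.88). The genes nearest to Angpt1 were 2610306M01Rik, Eci1 and the pseudogene Gm15459, each with r = 0.92. Those nearest to Angptl6 were Zfp292 (r = 0.99), 4933421O10Rik and A230050P20Rik (both r = 0.98), the last being the gene that shares its exons.

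Receptors, partners and regulators of the family were taken from 7 lists with 63 genes. The lists were drawn up by function but with earlier results of these data known, so their share of called genes is a description and no independent evidence. Between hTNFtg and WT SFs the same rule called 10 of 61 tested genes raised and 6 lowered, which is 26.2% beside 6.39% of all genes, with a median log2 fold change of 0.22 beside 0.00. In infliximab-treated versus untreated hTNFtg SFs, 1 was raised and 1 lowered of 61, or 3.28% beside 2.43%. In infliximab-treated hTNFtg versus WT SFs, 8 were raised and 3 lowered of 60, or 18.3% beside 6.81%. With Benjamini-Hochberg adjustment over all genes tested, limma left 1 of these genes under 0.05 in hTNFtg versus WT SFs (Lilrb4a) and 3 in infliximab-treated hTNFtg versus WT SFs (Lilrb4a, Itga1 and Pcsk6). By edgeR on approximate reads these counts were 11 and 12. None was left by either tool between treated and untreated hTNFtg SFs, where limma gave 0 adjusted p under 0.05 over all genes, 1026 unadjusted P under 0.05, and edgeR 165 adjusted p under 0.05. Of the calls by the rule, 9 of 16, 0 of 2 and 8 of 11 held with each of the 6 libraries left out in turn.

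The receptor of the angiopoietins was hardly present in these cultures. Tek was at 0 to 6 normalized counts, Tie1, its partner receptor, at 0 in all libraries, and Ptprb, the phosphatase that silences Tek, at 0 to 4. In this list of TIE receptors and partners 8 genes were tested, of which 1 was raised and 1 lowered between WT and hTNFtg SFs. The lowered gene was Svep1, which encodes a large secreted matrix protein that binds TIE1. Svep1 was at 1525, 1006 and 1184 normalized counts in WT, at 598, 494 and 356 in hTNFtg, and at 593, 797 and 643 with infliximab. All hTNFtg libraries were below all WT libraries. The log2 fold change was -1.37 ± 0.32 in hTNFtg versus WT SFs (limma adjusted p = 0.116, edgeR adjusted p = 0.0163). In infliximab-treated hTNFtg versus WT SFs it was -0.86 ± 0.21 (limma adjusted p = 0.116, edgeR adjusted p = 0.00865), which is not past the rule. The raised gene was Dok2, an adaptor of TEK that is also known from blood cells, at 0, 9 and 1 in WT, 12, 15 and 17 in hTNFtg, and 10, 26 and 19 with infliximab. Its 12 in hTNFtg replicate 1 is below the floor of 18.7 there. This call was lost in 5 of 6 fits with a library left out (all but the one without WT replicate 2). Dok2 was also past the rule in infliximab-treated hTNFtg versus WT SFs (2.74 ± 0.84, limma adjusted p = 0.208), a call lost in 4 of 6 such fits (all but those without WT replicate 2 or infliximab replicate 1). Akt1 at 471 to 1086 and Pik3r1 at 269 to 447, the kinase and the phosphoinositide kinase subunit downstream of TEK, were not called in any comparison.

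In the list of integrins and immune receptors, which holds known receptors of the family such as Pirb and relatives of them, 3 of 9 were raised and 1 lowered in hTNFtg versus WT SFs. Lilrb4a, an inhibitory receptor of myeloid cells, was at 9, 28 and 8 normalized counts in WT, at 442, 143 and 168 in hTNFtg, and at 144, 96 and 111 with infliximab. The log2 fold change was 4.0 ± 0.56 in hTNFtg versus WT SFs (limma adjusted p = 0.0115) and 3.08 ± 0.44 in infliximab-treated hTNFtg versus WT SFs (limma adjusted p = 0.0214). With a library left out, limma adjusted p ran from 0.0632 to 0.339 in the first and from 0.112 to 0.343 in the second, and over the other settings, which include edgeR, from 1.02e-15 to 0.491 and from 5.49e-15 to 0.407. Pirb, a mouse receptor for Angptl2, was at 3, 16 and 5 in WT, at 44, 37 and 73 in hTNFtg, and at 24, 11 and 38 with infliximab. Its log2 fold change was 2.76 ± 0.66 in hTNFtg versus WT SFs (limma adjusted p = 0.127) and -1.15 ± 0.52 in treated versus untreated hTNFtg SFs (limma adjusted p = 0.803). The latter call was lost in 5 of 6 fits with a library left out (all but the one without infliximab replicate 3). In infliximab-treated hTNFtg versus WT SFs Pirb was past the rule at 1.61 ± 0.65 (limma adjusted p = 0.363), and that call was lost in 4 of 6 fits (all but those without WT replicate 2 or infliximab replicate 2) and with array quality weights.

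Itgb2, the leukocyte integrin beta chain, was at 2, 5 and 1 in WT, 87, 18 and 27 in hTNFtg, and 15, 19 and 51 with infliximab. It was past the rule in infliximab-treated hTNFtg versus WT SFs (2.95 ± 0.65, limma adjusted p = 0.0850). In hTNFtg versus WT SFs its log2 fold change was 3.45 ± 0.82 (limma adjusted p = 0.121). Lilrb4a, Pirb and Itgb2 are typical of myeloid cells, and 4 of the 8 macrophage markers (Ptprc, Cd68, Adgre1 and Lyz2) were raised by the same rule in the same comparison, with Lyz2 at 43 to 277 in WT, 2284 to 5356 in hTNFtg and 1277 to 2672 with infliximab, and Cd163 at 0 to 3. The part of these cells in the receptor levels was not tested. Itga1, a collagen-binding integrin chain, was lower, at 81, 90 and 103 in WT, 19, 30 and 40 in hTNFtg, and 35, 25 and 21 with infliximab. All hTNFtg libraries, treated or not, were below WT. Its log2 fold change was -1.64 ± 0.40 in hTNFtg versus WT SFs (limma adjusted p = 0.128) and -1.75 ± 0.27 in infliximab-treated hTNFtg versus WT SFs (limma adjusted p = 0.0286, and 0.101 to 0.335 with a library left out). Itgb1, Itgb5 and Itgav, the most abundant chains of the list, were not called in any comparison, and Itgav stood at 133 to 173 in WT, 217 to 480 in hTNFtg and 166 to 190 with infliximab.

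**Figure D5:**
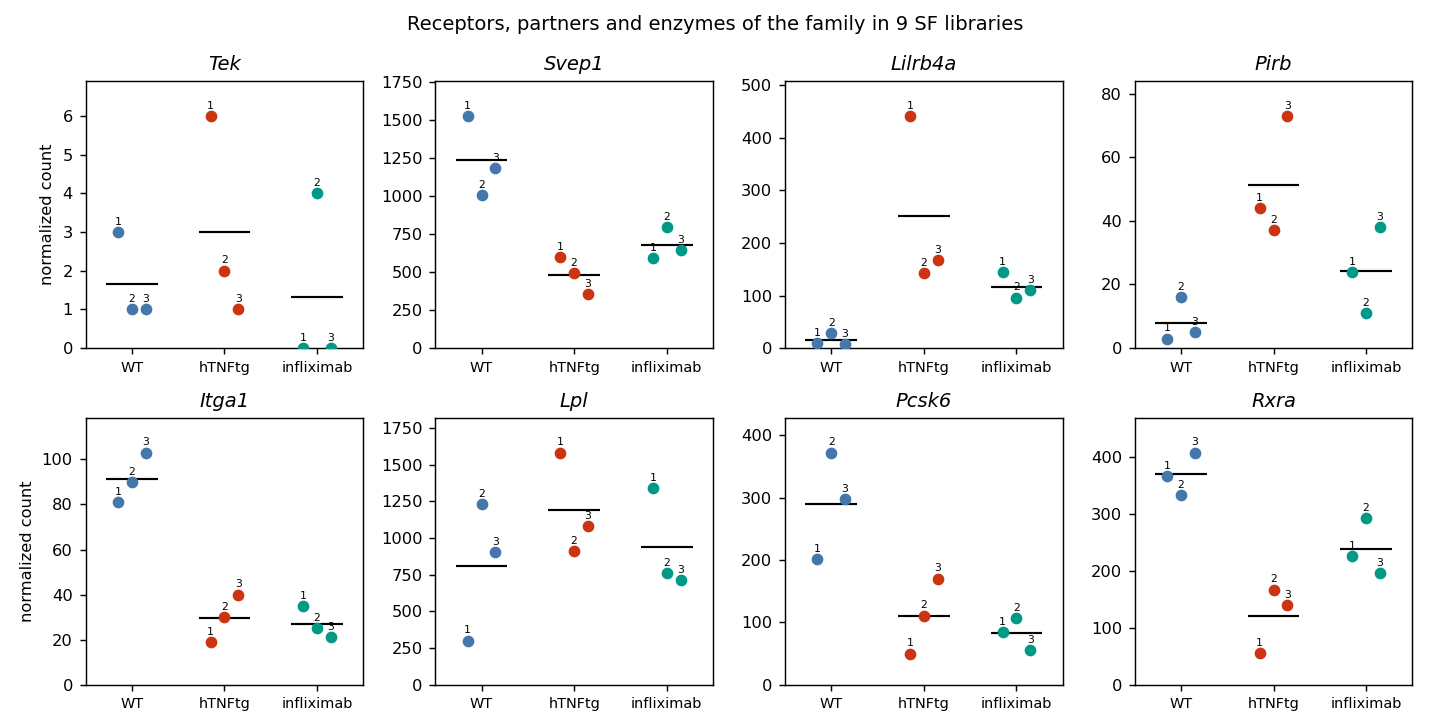
Normalized counts (y axis, own scale from 0 in each panel) of 8 receptors, partners, enzymes and regulators of the family in the 9 libraries. Points are libraries with their replicate number and lines are means of 3 libraries. Svep1, Itga1, Pcsk6 and Rxra are lower and Lilrb4a and Pirb higher in hTNFtg than in WT libraries, and Tek stays at 0 to 6.

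Lipoprotein lipase, the enzyme that Angptl4 inhibits, was expressed in all cultures, with Lpl at 301, 1229 and 906 normalized counts in WT, 1582, 913 and 1083 in hTNFtg, and 1342, 761 and 712 with infliximab. All groups overlapped, and the log2 fold change was 0.74 ± 0.48 in hTNFtg versus WT SFs (limma adjusted p = 0.726). Gpihbp1, which anchors the enzyme on capillary endothelium, was at 0 in all libraries. Sel1l, at 753 to 1153, was not called in any comparison. The only gene of this list past the rule was Cd36, a fatty acid transporter that macrophages also carry, at 0 to 2 in WT, 2 to 12 in hTNFtg and 4 to 13 with infliximab, and it was past the rule against WT in both of these groups. Its 12 in hTNFtg replicate 1 lay under the floor of 18.7. The call in hTNFtg versus WT SFs (limma adjusted p = 0.514) was lost in 4 of 6 fits with a library left out (all but those without WT replicate 2 or hTNFtg replicate 2) and with array quality weights. In infliximab-treated hTNFtg versus WT SFs the log2 fold change of Cd36 was 2.71 ± 0.70 (limma adjusted p = 0.135, and 0.194 to 0.420 with a library left out) and its call was lost in 0 of 6. Of the proprotein convertases, which cleave several angiopoietin-like proteins, Pcsk6 was lower at 201, 372 and 297 in WT, 50, 111 and 170 in hTNFtg, and 85, 107 and 56 with infliximab. Its log2 fold change was -1.51 ± 0.44 in hTNFtg versus WT SFs (limma adjusted p = 0.234) and -1.80 ± 0.30 in infliximab-treated hTNFtg versus WT SFs (limma adjusted p = 0.0322, and 0.0955 to 0.345 with a library left out). Without WT replicate 2 the first of these was no longer past the rule. Furin at 455 to 912 and Pcsk7 at 483 to 2090 were not called.

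Angptl4 is a known target of PPAR receptors, hypoxia and glucocorticoids, and the genes of these pathways were counted beside it. Of the 13 PPAR receptors and targets, 0 were raised and 2 lowered in hTNFtg versus WT SFs, both of them receptor genes. Pparg, the receptor of adipocytes, was at 12, 14 and 23 in WT, 0, 3 and 1 in hTNFtg, and 0, 1 and 2 with infliximab. Most hTNFtg libraries were thus at or near the floor. The log2 fold change of Pparg was -3.06 ± 0.86 in hTNFtg versus WT SFs (limma adjusted p = 0.216). In infliximab-treated hTNFtg versus WT SFs it was -3.20 ± 0.63 (limma adjusted p = 0.0599), also past the rule. Each call was lost in 0 of 6 fits with a library left out. Rxra, the partner receptor, was at 366, 333 and 407 in WT, 56, 167 and 140 in hTNFtg, and 226, 292 and 196 with infliximab. Its log2 fold change was -1.74 ± 0.40 in hTNFtg versus WT SFs (limma adjusted p = 0.102) and 1.09 ± 0.39 in treated versus untreated hTNFtg SFs (limma adjusted p = 0.803). The treated libraries were above all untreated hTNFtg libraries and below all WT libraries. The call between treated and untreated SFs was lost without hTNFtg replicate 1, without infliximab replicate 1, without infliximab replicate 2, with array quality weights and with edgeR. The targets Plin2, at 198 to 633, and Acadvl, at 399 to 874, were not called. Adipocyte markers were low or absent, with Adipoq at 0 to 5 and Lep and Cidec at 0, except Lpl and Fabp4. The latter was at 443, 408 and 359 in WT, 436, 222 and 65 in hTNFtg, and 217, 147 and 120 with infliximab, and it was past the rule in infliximab-treated hTNFtg versus WT SFs (-1.36 ± 0.23, limma adjusted p = 0.0386, and 0.128 to 0.335 with a library left out). In that comparison Retn, the resistin gene, was past the rule in the other direction, at 0 in all WT libraries and 3, 4 and 4 with infliximab (limma adjusted p = 0.0777). These values lay at or near the floor, which was 3.31, 2.71 and 2.21 normalized counts in infliximab replicates 1, 2 and 3.

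Of the 11 hypoxia target genes, 3 were raised and 1 lowered in hTNFtg versus WT SFs. The raised genes were Slc2a1, a glucose transporter, at 95 to 116 in WT and 139 to 473 in hTNFtg (1.36 ± 0.41, limma adjusted p = 0.266, not called without hTNFtg replicate 1), Ldha, lactate dehydrogenase (1.10 ± 0.35, limma adjusted p = 0.306), and Egln3, a HIF prolyl hydroxylase, at 4 to 21 and 40 to 62 (2.29 ± 0.62, limma adjusted p = 0.202). Ndrg1 was lowered (-1.10 ± 0.33, limma adjusted p = 0.270, not called without hTNFtg replicate 3 or with array quality weights), while Hif1a at 678 to 1243 and Adm at 2790 to 12642 were not called. Ldha was not called without WT replicate 1 or with array quality weights. In infliximab-treated hTNFtg versus WT SFs only Car9, a carbonic anhydrase, was raised, at 10 to 36 in WT and 48 to 83 with infliximab (1.63 ± 0.45, limma adjusted p = 0.159).

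Of the 8 glucocorticoid target genes, 2 were raised in hTNFtg versus WT SFs. Dusp1 is a MAP kinase phosphatase that inflammatory signals also induce. It was at 73, 37 and 27 in WT, 181, 213 and 144 in hTNFtg, and 183, 115 and 240 with infliximab. Its log2 fold change was 2.05 ± 0.40 in hTNFtg versus WT SFs (limma adjusted p = 0.0560). In infliximab-treated hTNFtg versus WT SFs it was 2.01 ± 0.38 (limma adjusted p = 0.0556), also past the rule. Fkbp5, a chaperone of the receptor, was at 16 to 36 in WT and 47 to 57 in hTNFtg (1.04 ± 0.44, limma adjusted p = 0.594), a call that was lost without WT replicate 1, without WT replicate 3, without hTNFtg replicate 2, with a pseudocount of 5 and with edgeR. Klf9 was past the rule in infliximab-treated hTNFtg versus WT SFs only (1.12 ± 0.47, limma adjusted p = 0.380), and that call was lost in 5 of 6 fits with a library left out (all but the one without WT replicate 1) and with edgeR. Tsc22d3, at 96 to 183, and Sgk1, at 185 to 395, were not called. Angptl4 itself showed log2 fold changes of -0.26, 0.00 and -0.26 across the 3 comparisons, as given above.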

How the data were processed

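Normalized counts of 3 WT, 3 untreated hTNFtg and 3 infliximab-treated hTNFtg libraries were compared. Per the labels and methods, the authors made the libraries with the QuantSeq 3′ kit, sequenced them on an Ion Proton, mapped reads to mm10 with TopHat2 and Bowtie2, counted them with GenomicRanges, removed genes without counts, normalized the rest by a method not given in the sources used here and tested with DESeq, all through metaseqR and without versions. The values deposited by the authors are a score, namely normalized counts that they rounded. For hTNFtg replicate 1 the deposited signal is a whole number of reads times a factor, as 100% of its low values fall within 0.1 reads of a multiple. In the other libraries 1.77% to 52.0% do, so their reads are approximate. The 2 deposited tables hold the same values for the 3 untreated hTNFtg libraries, and 24 further per-sample columns were not used, nor were the authors' fold changes and p-values, which hold their own comparisons.

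Groups were compared with limma 3.58.1 (eBayes with trend) in R 4.3.3 on log2(normalized count + 1), over the 6 libraries compared and genes above 0 in at least 1 of them. This log-scale test replaced a count test because the deposited values are normalized. The rule of the study (P below 0.05 without adjustment, 2-fold change or more) was kept, and adjusted p-values are Benjamini-Hochberg over all genes tested. Fold changes of low genes are understated on this scale. Groups hold biological replicates by the methods. The fit was tested on simulated data. The members and gene lists were chosen with earlier results of these data known. Named genes are all members, Angptl8, the genes of each list past the rule in any comparison, the 3 most abundant of each list, and the 3 most correlated genes of each member with a mean of at least 10. Other genes (Tek, Tie1, Ptprb, Gpihbp1 and the overlapping genes) were named after their values were seen, and some genes that the rule names are not reported here. Overlaps came from the coordinates in the tables, of which 91.5% of 49289 gene IDs matched GENCODE M21. Alternatives were other pseudocounts, a minimum mean, quantile or median ratio scaling, robust eBayes, array quality weights, all libraries in one fit, a replicate block, edgeR 4.0.16 on approximate reads, and each library left out.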

Additional observations from a re-analysis of the deposited data

How the results depend on the processing

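Members past the rule numbered 1 to 4 in hTNFtg versus WT SFs and 1 to 3 in infliximab-treated hTNFtg versus WT SFs when each library was left out, against 3 and 2 with all libraries, and Angptl7 was past it in all of these fits. With the replicate block the counts were 3, 0 and 2 in the 3 comparisons and 15, 2 and 10 for the pathway genes, with Cd36 no longer past the rule in hTNFtg versus WT SFs nor Klf9 and Pirb in infliximab-treated hTNFtg versus WT SFs, where Ptprb was past it instead. The labels do not say that a replicate number marks a shared mouse or batch. Deviations of same-numbered libraries correlated from -0.15 to 0.35, so not every pair was positive and pairing was not established. With the block 0 genes had an adjusted p under 0.05. Pathway genes past the rule in infliximab-treated versus untreated hTNFtg SFs numbered 0 to 4 with a library left out (0 without infliximab replicate 1 or 2, 4 without hTNFtg replicate 2), and 1, against 2, with a pseudocount of 5, with a minimum mean of 10, with array quality weights and with all 9 libraries in one fit. Of 361 member fold changes under alternatives, 357 moved by less than the spread between libraries, and no called value changed sign. Some of the 357 still moved by more than their SE. In hTNFtg versus WT SFs, Angpt4 went from -1.23 ± 0.50 to -1.86 with array quality weights. Angptl6 went there from -0.73 ± 0.47 to -0.21 without hTNFtg replicate 1. Over all genes, array quality weights gave 3540, 2125 and 2301 genes past the rule against 1823, 693 and 1923, a pseudocount of 5 gave 1352, 351 and 1057, and a minimum mean of 10 gave 1183, 314 and 1056 of fewer genes tested. edgeR gave 923, 165 and 1321 genes with an adjusted p under 0.05 against 137, 0 and 209 with limma. The causes were not tested. Depth limits Angptl1 and Angptl8 in all libraries, Angpt2 in all but WT replicate 3, and Angptl6 and Angpt4 in hTNFtg replicate 1.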
